A study of Sus scrofa with 34 samples.

Results

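The transcripts described here are those of 43 cell cycle genes, named by symbol from the G1 entry genes (CCND1, CCNE2 and E2F1) to the genes of mitosis and cell division, in the ileum and liver of weaned pigs. The count tables hold 25880 genes, and 38 of the 43 cell cycle genes were matched to one of them. RRM2, CCNA2, PCNA, AURKA and MKI67 were not matched and were not analysed here. All 38 genes passed the filter on low counts in both tissues, so none was lost by it.

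The pigs were crossbred weaned piglets (sow Landrace × Large White, boar Pietrain) that received 1 of 4 diets for 28 days and were sampled on day 28. Control piglets had the basal diet, which held a little fresh rapeseed oil. PFA piglets had the same diet with a phytogenic feed additive, a mix of essential oils (such as oregano and caraway oil) and nature-identical synthetic compounds. OO piglets had a diet with a far larger share of rapeseed oil that had been oxidized by heating, and OO + PFA piglets had that diet with PFA. The OO diets thus held more fat and energy than the basal diet, and this cannot be told apart from the oxidation of the oil. Ileum was sequenced from 5 control and 5 PFA piglets, and liver from 6 piglets of each diet. The study left out 1 OO + PFA liver because it suspected degraded RNA, and did not name the pig. Among the signs it gave was the lowest share of mapped reads. The liver left out was taken to be OP-77, so 23 livers are compared here. The library of OP-77 had 36.6 read pairs with several alignments per 100 on genes against at most 14.7 in the other livers. Each diet was fed in 1 pen, so that pen and diet cannot be told apart. Pigs are named by diet (C, P, OO and OP for OO + PFA) and number.

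Each cell division begins with cyclin D and its kinase partners, which inactivate the retinoblastoma protein and release the E2F factors that turn on the genes of DNA replication. The MCM helicase is then loaded on replication origins, nucleotides are supplied for S phase, and cyclin B with CDK1 drives the cell into mitosis, where kinesins and their partners build the spindle and the anaphase-promoting complex (APC/C) ends the division. The crypts of the intestine renew their epithelium continuously, whereas most hepatocytes of a weaned animal rest outside the cycle. In pieces of whole tissue, fewer cells of a type and less RNA per cell cannot be told apart.

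The promoters of 2 genes, PRC1 and CDK1, are shown. PRC1 was the 1 gene of the 38 that differed between OO and control livers at an adjusted p of at most 0.05 (edgeR). CDK1 is a central gene of the G2/M programme and did not differ at this threshold. Each promoter is the window from 250 bases before to 20 bases after the RefSeq gene start on Sscrofa11.1. A window of this kind was available for 37 of the 38 genes. Capitals mark matches on either strand to the CCAAT box (CCAAT, bound by NF-Y), the cell cycle homology region or CHR (TTTGAA) and 3 E2F words (TTTCCCGC, TTTGGCGC and TTTCGCGC). None of these words overlaps another in the windows shown.
PRC1, chr7:55869499-55869768, plus strand: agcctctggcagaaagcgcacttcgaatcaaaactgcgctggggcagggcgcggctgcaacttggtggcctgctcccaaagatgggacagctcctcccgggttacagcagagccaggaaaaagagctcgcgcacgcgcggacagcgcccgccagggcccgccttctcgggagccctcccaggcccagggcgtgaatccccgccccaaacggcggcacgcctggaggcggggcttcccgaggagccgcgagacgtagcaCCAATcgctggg
CDK1, chr14:64233695-64233964, plus strand: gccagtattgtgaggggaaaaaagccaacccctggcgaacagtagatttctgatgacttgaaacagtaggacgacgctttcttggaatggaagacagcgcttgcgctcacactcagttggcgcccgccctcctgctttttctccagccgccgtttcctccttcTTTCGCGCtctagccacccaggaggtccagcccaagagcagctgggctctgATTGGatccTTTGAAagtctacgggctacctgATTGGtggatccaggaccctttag

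The CDK1 window held 2 CCAAT boxes, a CHR and an E2F word, and the PRC1 window held 1 CCAAT box after the start. Of the 37 windows, 26 held a CCAAT box (70.3%, against 33.5% of 19500 promoters of the same length), 14 held a CHR (37.8% against 13.1%) and 3 held an E2F word (8.11% against 2.51%). A CCAAT box together with a CHR was found in 12 windows (32.4%, against 4.73% of all promoters). These matches describe the letters of the windows and are not evidence of binding. Whether they relate to the differences between OO and control livers was not tested.

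Between 19839171 and 42446834 read pairs were counted on genes in the 23 livers (median 26687231), and between 18772230 and 24338165 in the 10 ilea (median 20503630). Hepatocyte markers were high in the liver libraries (summed level at least 101086 CPM in every diet) and enterocyte and crypt markers were high in the ileum libraries, as their labels say. Ileum C-80 (control) stood apart, with a summed level of germinal centre and B cell markers of 489 CPM against 47.9 to 60.4 CPM in the other 4 control ilea. The control livers C-80 and C-85 stood apart too, with 60.4 and 95.2 CPM of endothelial markers (269.6 to 335 CPM in the other 4 control livers), 239 and 274 CPM of macrophage markers (496 to 919 CPM) and 23.5 and 18.5 read pairs outside genes per 100 on genes (at most 14.6). C-80 and C-85 were the control livers with library titles of the PL form, the others having the PigLiv form. These pigs and their title form thus cannot be told apart. Both forms occurred in each liver diet, but the PL titles also carry an end number that was not balanced. C-80 and C-85 shared theirs with OO-97 alone, and all other PL livers, including those of PFA and OO + PFA, had another. The labels do not state what the forms or end numbers stand for. The fit with title form as a covariate did not separate the end numbers, and their part in the results was not tested. No 2 libraries were alike within counting noise. Levels are given as CPM, the counts scaled to the size of the library after TMM normalization. Differences are log2 ratios with standard errors derived from the ratio and its F statistic in the edgeR quasi-likelihood fit.

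Oxidized oil was compared with control in the liver first. PRC1 was the 1 cell cycle gene that rose past the threshold (adjusted p at most 0.05, Benjamini-Hochberg over 13831 genes), and the fitted difference of each of the 38 genes was above 0 (of 36 when scaled by RLE or the upper quartile). At this threshold 2.71% of all genes tested were called, and 1.37% of all genes tested were called higher in OO livers. Control and OO livers overlapped for all 38 genes, whereas 2.24% of all genes tested had no overlap. The median difference of the 38 genes was 0.39 on the log2 scale, from 0.01 to 1.199, beside a median of 0.06 over all genes tested, of which 57.7% were above 0. An unadjusted p under 0.05 was found for 10 of the 38 genes, beside 21.4% of all genes tested. Without the control livers C-80 and C-85, a fit added after the data were seen, PRC1 was again the 1 gene called (1.05, adjusted p = 0.0399, edgeR) and the median of the 38 was 0.47. That fit held control livers of the PigLiv title form alone. The 38 genes varied together between livers, so that they are not 38 independent readings of the diet.

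PRC1 (ENSSSCG00000037307, chr7:55869749-55900640, plus strand) encodes the protein that bundles the antiparallel microtubules of the spindle midzone for cytokinesis. Its level was 4.08 CPM in the lowest, 6.67 CPM in the median and 8.50 CPM in the highest control liver, and 7.87, 14.5 and 17.4 CPM in the OO livers. Of the OO livers, OO-99 alone lay within the control range. PRC1 rose 2.07-fold (log2 difference 1.05 ± 0.21, SE, adjusted p = 0.00598, edgeR). In the PFA livers PRC1 was 5.27, 7.13 and 8.67 CPM (lowest, median and highest), which overlapped the control livers nearly throughout (log2 difference 0.07, adjusted p = 0.921). The 5 OO + PFA livers had 7.16, 9.15, 10.5, 12.9 and 15.3 CPM. The lowest of these, OP-79, lay within the control range and the other 4 above it, and the difference from control (0.72 ± 0.21) just missed the threshold (adjusted p = 0.0508, edgeR). Across the 4 diets, PRC1 was called (adjusted p = 0.00566, edgeR), the single one of the 38 genes to be called, beside 3.66% of all genes tested. An unadjusted p under 0.05 across the diets was found for 5 of the 38 genes, beside 25.2% of all genes tested.

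PRC1 overlaps LOC110261561, a long non-coding RNA gene on the opposite strand, and the strand option of the counting is not stated, so that reads of the pair cannot be told apart. The gene upstream of PRC1, VPS33B (chr7:55840612-55865045), which encodes a vesicle sorting protein, had a difference from control of -0.41 in OO livers (adjusted p = 0.0874), -0.48 in PFA livers (adjusted p = 0.277) and -0.35 in OO + PFA livers (adjusted p = 0.143), with no call in any of the 3.

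The excess of PRC1 was set beside the other spindle genes of the same liver, a comparison chosen after its values were seen and given without a test. The log2 level of PRC1 minus the median of the other 7 spindle genes was -0.58, -0.28 and -0.05 (lowest, median and highest) in the control livers and -0.68, -0.47 and -0.14 in the PFA livers. It was -0.03, 0.41 and 0.63 in the OO livers, and -0.15, 0.38 and 0.88 in the OO + PFA livers. On this measure the OO livers lay above all control livers, the lowest being OO-74, whereas the OO + PFA livers overlapped them through OP-126.

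**Figure D1:**
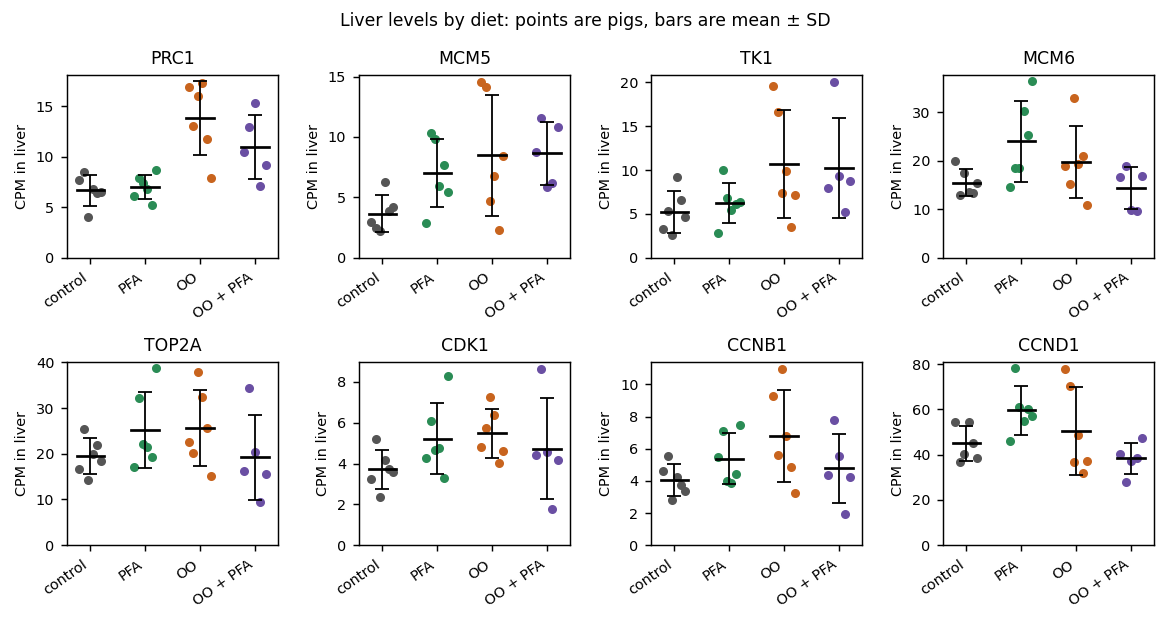
Levels of 8 cell cycle genes in 23 livers by diet, in CPM; points are pigs and bars the mean ± SD of 6 pigs (5 for OO + PFA). PRC1 reached 17.4 CPM in the OO livers against at most 8.50 CPM in the control livers, with OO-99 within the control range, and the diets overlapped for the other 7 genes too.

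The genes of replication and nucleotide supply were less uniform in the OO livers. MCM5, a subunit of the MCM helicase that lies on an unplaced scaffold, had 2.20, 3.42 and 6.27 CPM (lowest, median and highest) in control livers and 2.29, 7.57 and 14.5 CPM in OO livers. The difference was 1.199 ± 0.37, larger than that of PRC1, but the OO livers reached from near the bottom of the control range to far above it (adjusted p = 0.0750, edgeR). TK1, the cytosolic thymidine kinase of S phase, had 2.5996, 4.999 and 9.21 CPM in control and 3.496, 8.65 and 19.7 CPM in OO livers (1.01 ± 0.39, adjusted p = 0.133). The median difference of the 8 replication genes was 0.12, and that of TK1 and TYMS, the thymidylate synthase, was 0.75.

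Among the mitotic genes, DLGAP5, a kinetochore fibre protein, had 2.5996, 3.77 and 4.29 CPM (lowest, median and highest) in control livers and 3.04, 5.63 and 9.64 CPM in OO livers (0.73 ± 0.28, adjusted p = 0.133). CCNB1, cyclin B1, had 2.78, 4.01 and 5.58 CPM in control and 3.26, 6.20 and 10.96 CPM in OO livers (0.74 ± 0.29, adjusted p = 0.144). CDK1, its kinase, had 2.38, 3.66 and 5.22 CPM in control and 4.04, 5.28 and 7.26 CPM in OO livers (0.55 ± 0.28, adjusted p = 0.251). For each of these the upper OO livers lay above the control range and the lower ones within it. TOP2A, the topoisomerase that untangles replicated chromosomes, had 14.2, 19.2 and 25.5 CPM in control and 15.1, 24.1 and 37.9 CPM in OO livers (adjusted p = 0.396). The group medians were 0.57 for the 3 centromere genes, 0.58 for CDC20 and UBE2C of the APC/C, 0.53 for the late cyclins, CDK1 and FOXM1, and 0.39 for the 8 spindle genes and also for the 5 mitotic kinases and checkpoint genes.

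The G1 entry genes were nearest to 0, with a median of 0.09. CCND1, cyclin D1, had 36.7, 42.8 and 54.5 CPM (lowest, median and highest) in control and 31.8, 42.9 and 77.9 CPM in OO livers (0.16, adjusted p = 0.663). E2F1, the factor at the head of the replication programme, had 1.57, 2.70 and 4.34 CPM in control and 1.37, 2.86 and 4.28 CPM in OO livers (0.09, adjusted p = 0.891). The OO and control livers overlapped widely for both genes.

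PFA without oxidized oil was compared with the same control livers, and none of the 38 genes was called by edgeR or by DESeq2. Of all genes tested 0% were called by edgeR (DESeq2 called 43 genes), and 0.983% of all genes tested had no overlap between the groups, against 0 of the 38 genes. The fitted difference was above 0 for 33 of the 38 genes with a median of 0.32, beside 53.8% and a median of 0.03 over all genes tested. Without the control livers C-80 and C-85 it was above 0 for all 38, with a median of 0.42 and no call. An unadjusted p under 0.05 was found for 4 genes, beside 11% of all genes tested, and these were the helicase subunits MCM4, MCM5 and MCM6, and CCND1. MCM6 had 13.1, 14.6 and 19.9 CPM (lowest, median and highest) in control and 14.7, 22.0 and 36.5 CPM in PFA livers (0.63 ± 0.24, adjusted p = 0.381, edgeR). MCM4 had 12.5, 14.5 and 22.9 CPM in control and 10.9, 27.1 and 31.6 CPM in PFA livers (0.66 ± 0.25, adjusted p = 0.383). The upper PFA livers exceeded every control liver for both subunits, and the lower ones did not.

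MCM5 had 2.89, 6.81 and 10.3 CPM (lowest, median and highest) in PFA livers (0.94 ± 0.37, adjusted p = 0.396), again overlapping the control livers. CCND1 had 45.9, 58.6 and 78.5 CPM in PFA livers, the highest median of the 4 diets for this gene (0.41, adjusted p = 0.450). In the order of roles, the median difference with PFA was 0.36 for the G1 entry genes, 0.39 for the replication genes, 0.28 for the spindle genes and 0.09 for CDC20 and UBE2C. TOP2A (17.2, 21.8 and 38.7 CPM), CDK1 (3.27, 4.71 and 8.27 CPM), CCNB1 (3.85, 4.96 and 7.47 CPM) and E2F1 (1.65, 4.11 and 4.31 CPM) in PFA livers each overlapped control, and none of them had an unadjusted p under 0.05.

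**Figure D2:**
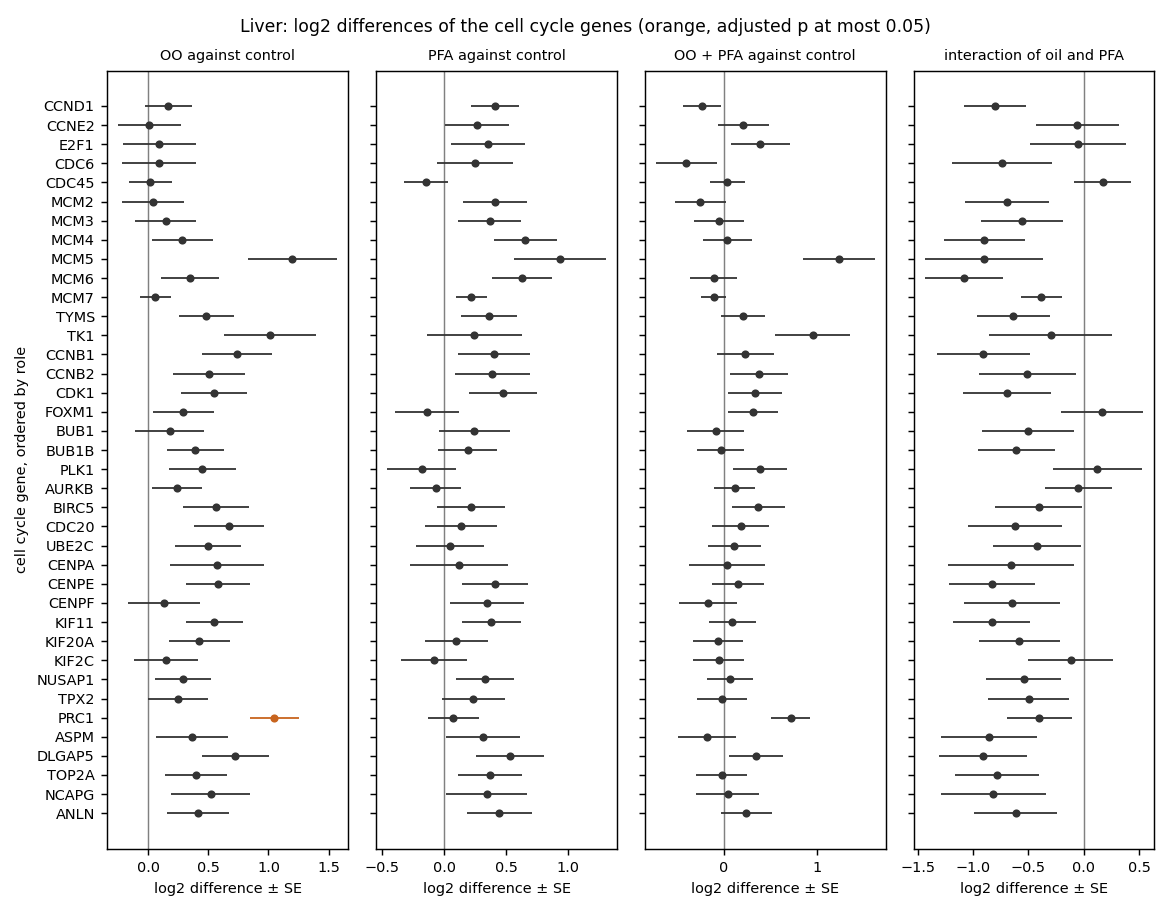
Log2 difference ± SE of the 38 cell cycle genes in the liver for OO, PFA and OO + PFA against control and for the interaction of oil and PFA; PRC1 is orange. All 38 differences lie above 0 for OO, 33 for PFA and 24 for OO + PFA, and 3 for the interaction.

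OO + PFA was compared with control, with OO and with PFA. These comparisons share livers with those above, and with each other, so that their values are given side by side and not as separate evidence. Against control, none of the 38 genes was called by edgeR, beside 5.08% of all genes tested, and 2 were called by DESeq2 (MCM5 and PRC1). An unadjusted p under 0.05 was found for 3 genes, PRC1, MCM5 and TK1, beside 22.6% of all genes tested, and 0 genes had no overlap between the groups, beside 9% of all genes. The difference was above 0 for 24 of the 38 genes, with a median of 0.08, beside 48.8% and a median of -0.01 over all genes tested. After GC correction it was above 0 for 33 genes with a median of 0.20, beside 0.09 over all genes in that fit. Without the control livers C-80 and C-85 it was above 0 for 29 genes with a median of 0.22, and none was called.

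MCM5 had 5.84, 6.15, 8.79, 10.8 and 11.6 CPM in the 5 OO + PFA livers, of which 3 lay above every control liver (1.23 ± 0.39, adjusted p = 0.0606, edgeR). TK1 had 5.21, 7.95, 8.72, 9.33 and 20.04 CPM, and 2 of these lay above every control liver, OP-126 far above (0.95 ± 0.40, adjusted p = 0.153). The mitotic genes lay near control in most OO + PFA livers. TOP2A had 9.53, 15.6, 16.3, 20.3 and 34.4 CPM, CDK1 had 1.77, 4.17, 4.43, 4.59 and 8.64 CPM, and CCNB1 had 1.96, 4.21, 4.39, 5.56 and 7.81 CPM. For each of the 3 genes 1 liver lay below all control livers and 1 above. The low one was OP-79 and the high one OP-126.

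Against OO, none of the 38 genes was called by edgeR or DESeq2 and none had an unadjusted p under 0.05, while 0% of all genes were called by edgeR (DESeq2 called 31 genes) and 8.5% had an unadjusted p under 0.05. The groups had no overlap for 0.774% of all genes and for 0 of the 38 genes. The difference was below 0 for 33 of the 38 genes, with a median of -0.27, beside -0.02 over all genes. CCND1 had 27.7, 37.4, 38.7, 40.4 and 47.3 CPM in OO + PFA livers (-0.39 ± 0.21, adjusted p = 0.603, edgeR). KIF11, the kinesin that pushes the spindle poles apart, had 4.26, 7.13 and 11.11 CPM (lowest, median and highest) in OO livers and 2.52, 4.46, 4.77, 5.36 and 9.43 CPM in OO + PFA livers (-0.45 ± 0.25, adjusted p = 0.618). KIF20A, a kinesin of cytokinesis, had 4.83, 8.14 and 12.2 CPM in OO livers and 2.65, 5.07, 5.49, 5.84 and 10.4 CPM in OO + PFA livers (-0.48 ± 0.27, adjusted p = 0.619). The groups overlapped for all 3 genes. The difference of PRC1 between OO + PFA and OO was -0.33 (adjusted p = 0.680), which does not show that the groups were alike.

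Against PFA, none of the 38 genes was called by edgeR, beside 1.58% of all genes tested, and CCND1 was called by DESeq2. An unadjusted p under 0.05 was found for 6 genes, beside 23.5% of all genes, and 0 genes had no overlap between the groups, beside 6.49% of all genes. The difference was above 0 for 12 of the 38 genes with a median of -0.18, beside 0.003 over all genes tested. After GC correction it was above 0 for 21 of them with a median of 0.04, beside 0.08 over all genes in that fit. CCND1 was lower in OO + PFA (-0.64 ± 0.21, adjusted p = 0.105, edgeR), with 4 of 5 OO + PFA livers below the lowest PFA liver. MCM6 had 9.56, 9.90, 16.6, 16.9 and 19.0 CPM in OO + PFA livers (-0.74 ± 0.26, adjusted p = 0.117). MCM2, MCM4 and MCM7 were the other helicase subunits with an unadjusted p under 0.05, each lower in OO + PFA. PRC1 went the other way (0.65 ± 0.21, adjusted p = 0.108), and 4 of the 5 OO + PFA livers exceeded the highest PFA liver.

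The interaction asks whether the 2 additives together differ from the sum of their separate effects on the log2 scale. None of the 38 genes was called by edgeR or DESeq2, and 0% of all genes were called by edgeR (DESeq2 called 150). The interaction was below 0 for 35 of the 38 genes, with a median of -0.61, beside -0.05 over all genes tested, of which 45.04% were above 0. An unadjusted p under 0.05 was found for 9 genes, beside 13.6% of all genes. MCM6 (-1.09 ± 0.35, adjusted p = 0.213, edgeR), CCND1 (-0.80 ± 0.28, adjusted p = 0.238) and MCM4 (-0.90 ± 0.37, adjusted p = 0.298) came first, followed by KIF11, DLGAP5, CENPE, CCNB1, MCM7 and TOP2A. MCM4 had 13.5, 18.03 and 27.7 CPM (lowest, median and highest) in OO livers and 10.1, 10.1, 16.9, 19.9 and 25.02 CPM in OO + PFA livers. The medians were -0.72 for the replication genes and -0.79 for TOP2A, NCAPG and ANLN, whereas E2F1 (-0.05) and CCNE2 (-0.06) lay near 0.

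**Figure D3:**
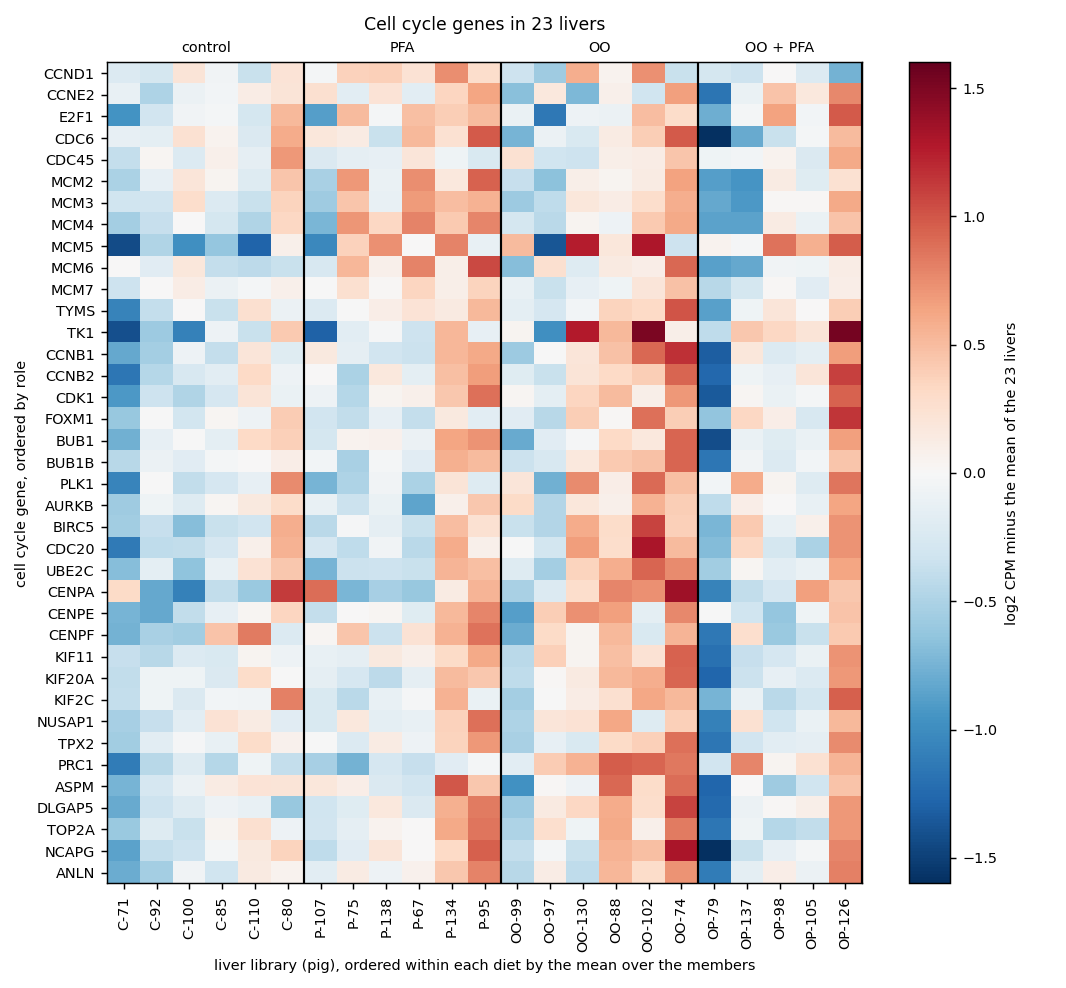
Levels of the 38 cell cycle genes in 23 livers, as log2 CPM centred on the mean of each gene, with genes ordered by role and livers by diet. OP-79 and C-71 are low and OO-74 and OP-126 high for most genes.

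The 38 genes moved together from liver to liver. The mean of their centred log2 levels was lowest in OP-79 (-0.86) and C-71 (-0.63) and highest in OO-74 (0.66), OP-126 (0.62) and P-95 (0.49). The SD of this mean within diets was 0.38, about as large as the median OO difference. Over the 23 livers the median correlation of 703 gene pairs was r = 0.59, and 694 pairs were positive; the points share their libraries and this r is a description. BUB1, the checkpoint kinase, had the highest median r with the other genes (0.73), and CCND1 (0.15), MCM5 (0.29), CDC45 (0.35) and PLK1 (0.39) the lowest. In the 10 ilea the median r was 0.71. CCND1 stood apart there too, with a median r of -0.39 and 4 of 37 pairs positive.

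Summed cell type markers in OP-79, the liver with the lowest cell cycle level, were the highest of the 5 OO + PFA livers for several lists. These were macrophage (1266 CPM, group median 754 CPM), mesenchyme and muscle (1740 CPM, group median 1150 CPM) and erythroid genes (449 CPM, group median 248 CPM, OP-137 443 CPM), and also T cell, germinal centre and B cell, and crypt genes. OP-79 was the lowest of the 5 for hepatocyte (117399 CPM) and bile duct markers (26.5 CPM), and neither highest nor lowest for endothelial and enterocyte markers. The part of these markers in the result was not tested. Without OP-79, the PRC1 difference between OO + PFA and control was 0.84 and was called (adjusted p = 0.0464, edgeR).

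Library composition moved with some of the members. For each library the slope of centred log2 CPM over GC content was fitted across all genes with a GC value, and 76 relations of this slope to a member were examined (38 in each tissue, 100000 permutations, two-sided, Benjamini-Hochberg over the 76). MCM5 followed the slope in the 23 livers (r = 0.67, p = 0.00060, adjusted p = 0.0188, Spearman's rho = 0.71, p = 0.00029, adjusted p = 0.0125) and in the 10 ilea (r = 0.93, p = 0.00026, adjusted p = 0.0188, rho = 0.93, p = 0.00033, adjusted p = 0.0125). Leaving out the 2 most extreme slopes of each tissue gave r = 0.78 in the liver and 0.93 in the ileum. TK1 followed it in the liver (r = 0.57, p = 0.0047, adjusted p = 0.0397, rho = 0.56, p = 0.0065, adjusted p = 0.0827, 0.73 without those 2) and in the ileum (r = 0.87, p = 0.0017, adjusted p = 0.0268, rho = 0.85, p = 0.0028, adjusted p = 0.0528, 0.88 without those 2).

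PLK1, the Polo kinase, also rose with the slope in the liver (r = 0.59, p = 0.0028, adjusted p = 0.0268, rho = 0.66, p = 0.00070, adjusted p = 0.0177, 0.69 without those 2), and E2F1 did in the ileum (r = 0.84, p = 0.0023, adjusted p = 0.0268, rho = 0.78, p = 0.0106, adjusted p = 0.115, 0.74 without those 2). MCM6 fell with it in the liver (r = -0.66, p = 0.00074, adjusted p = 0.0188, rho = -0.56, p = 0.0059, adjusted p = 0.0827, -0.49 without those 2). So did CDC6, the licensing factor (r = -0.60, p = 0.0021, adjusted p = 0.0268, rho = -0.48, p = 0.0221, adjusted p = 0.152, -0.37 without those 2), and CCNE2, cyclin E2 (r = -0.59, p = 0.0026, adjusted p = 0.0268, rho = -0.45, p = 0.0332, adjusted p = 0.168, -0.41 without those 2). The 3 positive genes of the liver had 57.8% to 65.6% GC, and MCM6, CDC6 and CCNE2 had 44.0%, 46.1% and 39.4%. Other genes with over 55% GC, such as E2F1 (64.0%), did not pass the threshold in the liver. The slope ran from -0.21 to 0.08 per 10% GC in control livers, from -0.47 to 0.07 in PFA, from -0.38 to 0.42 in OO and from 0.04 to 0.49 in OO + PFA livers, and these relations pool the diets.

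After a GC correction of each library, the MCM5 difference from control was 0.79 in OO livers (adjusted p = 0.0618) and 0.70 in OO + PFA livers (adjusted p = 0.104), and that of TK1 was 0.58 and 0.27 (adjusted p = 0.255 and 0.663, edgeR). PRC1, with 46.3% GC, had 1.14 in OO livers (adjusted p = 0.0014) and 0.93 in OO + PFA livers (adjusted p = 0.0098) after the same correction. The OO difference of MCM5 and TK1 was thus smaller, and that of PRC1 not smaller, when the GC slope was taken out.

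In the ileum, PFA was compared with control in 5 pigs each, and none of the 38 genes was called by edgeR or DESeq2 or had an unadjusted p under 0.05. Of all 14300 genes tested 0% were called by edgeR (DESeq2 called 4) and 2.8% had an unadjusted p under 0.05. Control and PFA ilea overlapped for all 38 genes, while 0.559% of all genes had no overlap. The difference was above 0 for 28 of the 38 genes, with a median of 0.13, beside 53.3% and 0.02 over all genes. Without C-80 it was above 0 for 36 genes with a median of 0.29, and no member was called. After GC correction it was above 0 for 23 genes with a median of 0.02, beside -0.06 over all genes. Fitting the genes with a GC value without correction left it above 0 for 25 genes with a median of 0.08, beside -0.02 over all genes. All 8 spindle genes were above 0 with C-80 (median 0.23) and without it (0.33). Of the 8 replication genes 6 were below 0 with C-80 (median -0.03) and MCM5 alone without it (median 0.15). The 14 genes with less than 45% GC were all above 0 (median 0.24, and 0.37 without C-80). Of the 12 with over 55% GC, 9 were below 0 (median -0.03), but MCM5 alone without C-80 (median 0.15). These patterns, counted from 0, were weaker or changed after GC correction, where the median over all genes was -0.06. Then 6 of the 8 spindle genes were above 0 (median 0.02) and 7 of the 8 replication genes below 0 (median -0.07). Of the genes with less than 45% GC 9 of 14 were above 0 (median 0.03), and of those with over 55% GC 6 of 12 (median 0.01).

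ANLN, the anillin of the cleavage furrow, had 42.98, 44.2, 52.5, 53.8 and 63.4 CPM in control ilea and 54.4, 54.8, 58.6, 70.6 and 104 CPM in PFA ilea (0.42 ± 0.19, adjusted p = 0.991, edgeR). CDK1 had 24.4, 31.5, 39.5, 45.5 and 50.1 CPM in control and 41.5, 43.2, 47.6, 60.2 and 60.9 CPM in PFA ilea (0.41 ± 0.20). PRC1 had 31.6, 35.1, 35.4, 40.8 and 46.7 CPM in control and 34.5, 42.997, 43.8, 49.7 and 62.9 CPM in PFA ilea (0.30 ± 0.16). The groups overlapped for all 3 genes, and P-75 and P-138 were the highest PFA ilea in each.

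TOP2A had 235, 247, 259.9, 352 and 384 CPM in control and 262, 265, 305, 369.9 and 412 CPM in PFA ilea. CCNB1 had 26.1, 31.4, 32.6, 50.8 and 54.8 CPM in control and 35.7, 38.9, 45.01, 55.2 and 56.2 CPM in PFA ilea. C-80 was the highest control ileum for both, and the PFA ilea lay within or little above the control range. MCM5 had 3.86, 8.203, 19.7, 22.9 and 26.3 CPM in control and 5.55, 6.998, 7.24, 7.82 and 32.7 CPM in PFA ilea (-0.42), so that P-134 alone of the PFA pigs reached the upper control ilea. CCND1 had 25.4, 32.9, 38.04, 38.3 and 39.3 CPM in control and 23.4, 32.7, 37.0, 41.4 and 46.8 CPM in PFA ilea (0.06). E2F1 had 1.77, 3.84, 4.92, 6.28 and 8.95 CPM in control and 2.46, 4.02, 4.12, 4.98 and 8.81 CPM in PFA ilea (-0.08). Neither gene separated the diets.

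The effect of PFA was set against itself between the tissues in the 10 pigs that gave both. None of the 38 genes differed past the threshold by edgeR or DESeq2 or at an unadjusted p under 0.05, beside 0% of all genes called and 4.93% with an unadjusted p under 0.05. MCM5 had the smallest p (-1.44 ± 0.74, adjusted p = 0.976, edgeR).

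The tissues themselves differed widely. The lower bound of RNA integrity that the study states was higher for ileum than for liver, and the title forms of the libraries also differed between the tissues. Tissue, RNA quality and title form thus cannot be told apart here. Of the 38 genes, 31 were higher in ileum than in liver and 2 lower at the threshold, that is 33 called, beside 78.1% of 14982 genes tested, 40.6% higher and 37.5% lower. The median difference was 1.38, beside 0.05 over all genes. The 10 ileum and 10 liver libraries did not overlap for 18 genes that were higher in ileum and for CCND1, which was lower, while 22.2% of all genes were higher and 20.4% lower without overlap. By role, the median differences, which were not tested against each other, were 2.34 for the centromere genes, 2.04 for TOP2A, NCAPG and ANLN, 1.87 for the late cyclins, CDK1 and FOXM1, 1.70 for the spindle genes, 1.57 for the mitotic kinases and 1.46 for CDC20 and UBE2C. The replication genes had a median of 0.52, the nucleotide supply genes 0.77 and the G1 entry genes -0.40. The G1 entry genes went different ways, with CCND1 at -1.66 (called), E2F1 at -0.40 (not called) and CCNE2 at 0.76 (called).

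On the scale shared by both tissues, CENPE, the kinetochore kinesin, had 39.8, 55.2 and 94.5 CPM (lowest, median and highest) in ileum and 5.32, 9.38 and 16.2 CPM in liver, a 6.48-fold difference. TOP2A had 156, 192 and 279 CPM in ileum and 20.4, 29.1 and 57.6 CPM in liver (6.45-fold, adjusted p = 4.27e-12, edgeR). KIF11 had 33.9, 45.1 and 69.5 CPM in ileum and 6.22, 7.86 and 13.1 CPM in liver (5.73-fold, adjusted p = 6.56e-13). Every ileum lay above every liver for these genes. CENPF, a kinetochore protein, was 5.07-fold higher (46.6, 75.9 and 129 CPM against 8.06, 12.9 and 25.8 CPM), and BUB1B, a checkpoint kinase, 4.92-fold higher (19.2, 27.8 and 41.9 CPM against 4.31, 5.75 and 8.81 CPM).

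CCND1 was 3.17-fold lower in ileum, with 15.9, 25.1 and 31.3 CPM (lowest, median and highest) against 54.0, 78.8 and 114 CPM in liver (log2 difference -1.66 ± 0.13, adjusted p = 1.58e-10, edgeR), and no ileum reached the lowest liver. MCM7, a helicase subunit, had 32.8, 44.8 and 71.2 CPM in ileum and 43.7, 57.7 and 72.6 CPM in liver (-0.28, adjusted p = 0.0366), and the tissues overlapped. E2F1 had 1.18, 3.08 and 6.20 CPM in ileum and 2.26, 4.22 and 6.49 CPM in liver (-0.40, adjusted p = 0.189). CDC45, a helicase activator, had 9.33, 15.4 and 24.6 CPM in ileum and 10.2, 12.2 and 21.6 CPM in liver (0.29, adjusted p = 0.0923). MCM5 had 2.57, 5.42 and 21.9 CPM in ileum and 3.16, 7.20 and 15.0 CPM in liver (0.34, adjusted p = 0.402). The tissues overlapped widely for these 3 genes, and MCM2 (adjusted p = 0.0879) and TK1 (adjusted p = 0.0964) were the other genes that were not called.

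Calls at the low end moved with the fit. With pig as a replicate block 35 genes were called, CDC45 (adjusted p = 0.0476) and MCM2 (adjusted p = 0.0491) being the additional ones. After GC correction CDC45, MCM2, MCM5 (0.75, adjusted p = 0.0109) and TK1 (1.06, adjusted p = 8.2e-05) were called, higher in ileum, and MCM7 was not (adjusted p = 0.826). The 14 genes with less than 45% GC had a median tissue difference of 2.13, and the 12 with over 55% GC of 0.60.

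Per kilobase of exon (lengths from RefSeq), the order of levels differed between the tissues. In the 23 livers MCM7 (11.5 CPM per kilobase, median), CCND1 (10.7) and TYMS (10.5) were highest, and ASPM (0.326), CDC6 (0.463) and CDK1 (0.598) lowest. These ranks depend on the length, which joins all exons of a gene. CDK1 was given 7666 bases and CCNB1 2045, while their median liver levels were alike (4.59 and 4.61 CPM), and CCNB1 had 2.25 CPM per kilobase. In the 10 ilea TOP2A (49.9 CPM per kilobase), TYMS (43.9) and UBE2C (43.7), the ubiquitin-conjugating enzyme of the APC/C, were highest, and E2F1 (1.72), CDC6 (2.14) and MCM5 (2.95) lowest.

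**Figure D4:**
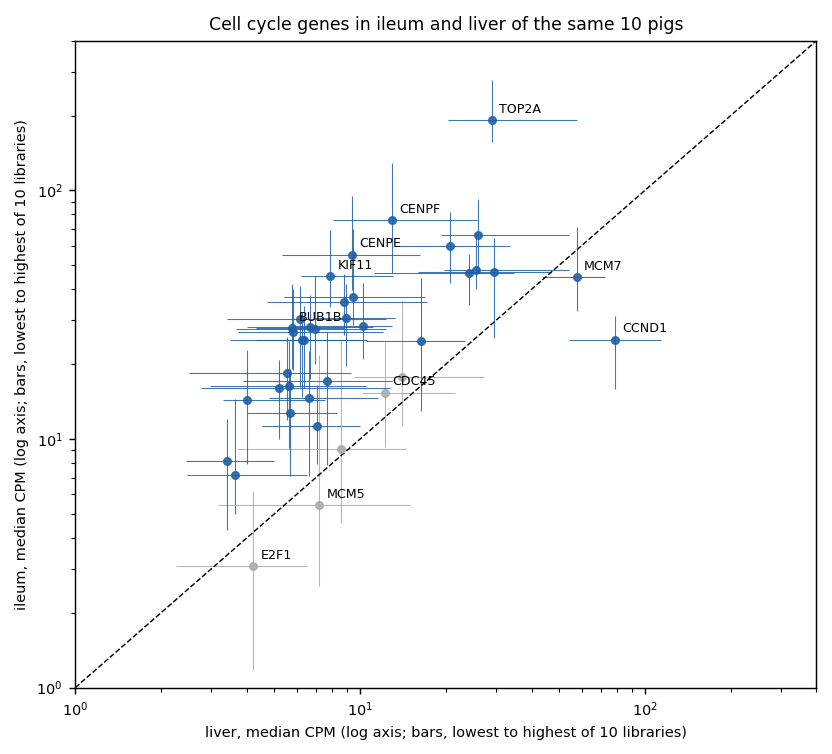
Median level of the 38 cell cycle genes in ileum against liver of the same 10 pigs, in CPM on log axes, with bars from the lowest to the highest pig; the dashed line marks equal levels and grey points were not called. TOP2A and CENPE lie far above the line (192 against 29.1 CPM and 55.2 against 9.38 CPM) and CCND1 below it (25.1 against 78.8 CPM).

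Of 121 other genes of the cell cycle listed by name, 112 were matched and 109 were tested in the liver. In OO livers 1 of the 109 was called, beside 2.71% of all genes tested. This was GADD45A, a growth arrest and DNA damage gene. It had 7.22, 7.81 and 9.60 CPM (lowest, median and highest) in control livers and 10.7, 20.6 and 31.9 CPM in OO livers, without overlap (2.52-fold, adjusted p = 0.00084, edgeR). The PFA livers had 7.54, 9.90 and 12.4 CPM. In OO + PFA livers GADD45A, at 9.41 to 20.7 CPM, and CDKN1C, the inhibitor p57, at 1.07 to 2.15 CPM against 0.457 to 0.960 CPM in control, were called (1.81-fold and 2.69-fold, adjusted p = 0.0310 and 0.0337), the 2 calls of 109, beside 5.08% of all genes. The median difference of the 109 genes in OO livers was 0.24 and 81 of them were above 0, beside 57.7% of all genes.

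Between the tissues, 93 of 110 other cell cycle genes were called, 84 higher in ileum and 9 lower, beside 78.1% of all genes called, 40.6% higher and 37.5% lower. All 24 genes of mitotic exit and cytokinesis had a difference above 0 and 23 were called. CDKN2B, the inhibitor p15, had 1387 to 1659 read pairs in each ileum and 0 to 4 in each liver of the same pigs. GADD45A was 2.80-fold higher in ileum (adjusted p = 5.15e-08, edgeR), whereas CDKN1C was 1.77-fold lower (adjusted p = 0.0127).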

How the data were processed

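Poly(A) RNA of 10 ilea and 24 livers was sequenced from stranded libraries. The deposited values are raw counts, which the authors obtained by aligning reads with STAR 2.6.1d (Sscrofa11.1) and summing read pairs over Ensembl genes in HTSeq. They were not scaled in any way. Which annotation release and strand setting were used is not given in the sources used here. Columns of the authors' own comparisons were not used.

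Cell cycle genes and the lists of other genes and cell type markers were chosen with earlier results of these data known. Symbols were found for 14857 of 25880 genes, and positions, exon lengths, GC content (13703 genes) and promoters come from RefSeq on Sscrofa11.1. Counts were scaled by TMM, filtered with filterByExpr (13831 genes in liver, 14300 in ileum, 14982 in both) and tested, two-sided, with edgeR 4.0.16 (quasi-likelihood) in R 4.3.3, with Benjamini-Hochberg adjustment over all genes and a threshold of 0.05. The 23 livers shared one fit without covariates, and the 10 pigs with both tissues another. The latter had no term for pig, so that its p-values between tissues do not use the pairing, which the replicate block does. No liver comparison between diets could use pairs. Levels used for scores and slopes are log2 CPM with a prior count of 2. Python 3.11.15 was used for tables and figures, with numpy 2.4.6, pandas 2.3.3 and scipy 1.17.1. The main fits of liver, of ileum and of both tissues were run on simulated counts for a single comparison each. Those counts had independent genes and a fixed dispersion, and the alternative fits were not tested so.

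Values by sample (in groups of over 5 pigs the lowest, median and highest) are given for members called in a diet comparison, for the 3 with the smallest p in each, for TOP2A, CDK1, CCNB1, MCM5, CCND1 and E2F1, and between tissues for the 5 largest and 5 smallest differences. Alternatives were DESeq2 1.42.0, RLE and upper quartile scaling, dropping the filter or asking for at least 10 counts per library, correcting for GC (lowess, span 0.5), all 24 livers, the title form of the libraries as a covariate, the 2 diets alone, pig as a replicate block and leaving out each pig. Genes with a GC value fitted without correction, and the livers without C-80 and C-85, were added after the data were seen. Ileum and liver came from the same 10 pigs, which is where the pairing comes from. Deviations from the group mean in ileum and liver of the same pig correlated at r from -0.18 to 0.46, and 6 of the 10 ilea correlated best with their own liver.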

Additional observations from a re-analysis of the deposited data

Results flagged for a closer look

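Single pigs stood apart from the rest of their group in 13 of 228 groups of values examined for the 38 genes (the gap to the nearest pig was a large part of the range). Chance gives about 1 in 20 such groups. In the liver, CDC45 was 14.9 CPM in C-80 (next control pig 9.75), 10.6 CPM in P-67 (next PFA pig 8.76) and 14.1 CPM in OP-126 (next OO + PFA pig 9.58). TK1 was 20.04 CPM in liver OP-126 (next 9.33). BIRC5, the survivin gene, was 7.97 CPM in liver C-80 (next 4.31). KIF2C, a microtubule-depolymerizing kinesin, was 5.17 CPM in liver C-80 (next 2.88), 4.34 CPM in liver P-134 (next 2.93) and 5.74 CPM in liver OP-126 (next 2.76).

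In the ileum, the pig apart was P-134 (PFA), with MCM2 at 40.8 CPM (next PFA pig 26.8), MCM3 at 47.6 CPM (next 36.7), MCM5 at 32.7 CPM (next 7.82), TK1 at 37.3 CPM (next 15.1) and AURKB, the Aurora B kinase, at 28.5 CPM (next 19.0). Without P-134 the median PFA difference of the 38 genes in the ileum was 0.16. The summed germinal centre and B cell markers of ileum C-80 (control) were 489 CPM against 60.4 CPM in the next control pig.

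Liver OP-77 (OO + PFA), which took no part in the fits, had 48.3% of its counts on 10 genes and 36.6 read pairs with several alignments per 100 on genes, against at most 34.8% and 14.7 in the other livers. It had MCM5 at 27.6 CPM (highest control 6.27), TK1 at 38.3 CPM (highest control 9.21) and CCND1 at 108.7 CPM (highest control 54.5), and 12 of the 38 genes lay above every control liver. The study suspected degraded RNA in the liver it left out, taken here to be OP-77. The part of the library in these levels was not tested.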

How the results depend on the processing

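PRC1 was called for OO against control in all 34 alternatives (log2 difference 0.94 to 1.17, adjusted p from 0.00019 to 0.0399) and across the diets in all 33. For OO + PFA against control it was called in 12 of 34 (adjusted p from 0.0098 to 0.130). MCM5 was called in 3 of 34 for OO (adjusted p from 0.0176 to 0.209) and in 8 of 34 for OO + PFA. The causes of these changes were not tested.

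Cell cycle genes called for OO against control were 2 with DESeq2, and 1 to 3 without single pigs (3 without OO-97, 2 without OO-74). For OO + PFA against control, 2 were called with DESeq2, with all 24 livers (MCM5 and TK1) and with the 2 diets alone, and 1 with at least 10 counts, with GC correction and with the genes that have a GC value. Without single pigs 0 to 2 were called (2 without OO-74, OO-97, OO-102 or OO-130, and 1 without C-80, P-95, OO-99 or OP-79). For OO + PFA against PFA, 1 was called lower with DESeq2 and with the 2 diets alone (CCND1) and with all 24 livers (MCM6), 1 was called higher with GC correction (PRC1), and 0 to 0 without single pigs. Across the diets 2 were called with DESeq2 and 1 to 2 without single pigs (2 without OO-97).

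Among all genes, DESeq2 called 4 for PFA in the ileum, and in the liver 1079 for OO, 43 for PFA, 1370 for OO + PFA against control, 31 against OO, 697 against PFA, 150 for the interaction and 1776 across the diets. GC correction gave 741 for OO, 13 for OO + PFA against OO, 351 against PFA, 2 for the interaction and 877 across the diets. All 24 livers gave 224 for OO, 1530 for OO + PFA against control, 1 against OO, 1225 against PFA and 1113 across the diets. The 2 diets alone gave 194, 1690 and 963 for OO and for OO + PFA against control and against PFA. Without livers C-80 and C-85, 107 were called for OO, 217 for OO + PFA against control and 303 across the diets. Upper quartile scaling gave 1 for OO + PFA against OO and 2 for the interaction, and RLE scaling and no filter gave 2 for the interaction.

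Without single pigs, all genes called ranged from 167 (without OO-130) to 1325 (without OO-97) for OO, from 191 (without C-71 or C-100) to 1127 (without OO-97) for OO + PFA against control, from 0 to 7 (without OO-102 or OP-105) against OO, from 103 (without OP-137) to 411 (without P-138) against PFA, from 0 to 5 (without OO-102) for the interaction, and from 297 (without C-85) to 1450 (without OO-97) across the diets.

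With pig as a replicate block, 35 cell cycle genes were called between ileum and liver (33 higher in ileum, median 1.45), the block changing no call but those of CDC45 and MCM2. Upper quartile scaling moved the median tissue difference of all genes from 0.05 to 0.20 and called 35 cell cycle genes (34 higher, 1 lower), and GC correction called 36. E2F1 between tissues turned from -0.40 to 0.024 with GC correction, and MCM5 (0.34) ranged, with single pigs left out, from -0.067 without ileum P-134 to 0.48 without liver C-80. The low counts of E2F1, CDK1 and MCM5 in the liver and groups of 5 or 6 pigs limit what can be seen.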
